A study of Homo sapiens with 6 samples.

Results

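Fibrinogen and other genes that hepatocytes use to make blood plasma were followed in RBE cells, an established human bile duct cancer line in which most of these genes are expressed at low levels and SERPINA1 at a high one. The genes were listed by name: the fibrinogen chain genes FGA, FGB and FGG, which form a cluster on chromosome 4, and APOH, APOB, A1CF, SERPINA1 and TF. Of these 8 genes, 7 were found among the 16200 genes with values, and each of the 7 passed the filter on low counts that left 12565 genes for testing. APOB was not analysed here. The list was drawn up with the contrast between the groups already known, and A1CF was taken because it rose strongly, so the members' own fold changes are given as a description, with their standard errors and without p-values.

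Poly(A)-enriched RNA was sequenced in 6 libraries of RBE cells. The sgKCNQ3 group, 3 libraries, carries by its name a guide RNA directed at the potassium channel gene KCNQ3, and the NC group, 3 libraries, is its control. Whether the guide directs a nuclease or a repressor, whether each group is 1 clone or a pool of cells, how long after delivery cells were collected, and what NC cells received is given by no source used here. The labels do not say that libraries came from separate cultures, so p-values reflect only how far these libraries varied, and that variation may be technical.

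Fibrinogen is the soluble precursor of the fibrin clot. It is assembled in the endoplasmic reticulum of hepatocytes from paired copies of the Aα, Bβ and γ chains, encoded by FGA, FGB and FGG, and in liver the genes of the cluster are transcribed together under liver transcription factors and interleukin-6 signals. APOH encodes beta-2-glycoprotein I, a plasma protein that binds anionic phospholipids. SERPINA1 encodes alpha-1 antitrypsin, the plasma inhibitor of neutrophil elastase, and TF encodes transferrin, the iron carrier of plasma. A1CF is not secreted: it encodes an RNA-binding cofactor of the enzyme that edits APOB mRNA.

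The stretch before the start of each of the 5 genes that were higher in sgKCNQ3 libraries is shown because liver promoters are known for short binding motifs close to the start. The 5 genes were picked by this same contrast, so motifs they share are a description. A link between motifs and fold changes was not tested. Each sequence is the 250 bases before the outermost RefSeq start (GRCh38.p14), 5′ to 3′ along the gene's own strand. Capitals mark letters that match any of 5 motifs on either strand. A half-site known from liver promoters was searched as GTTAAT and the interleukin-6 response element as CTGGGAA. The site of C/EBP factors was searched as TTGCNNAA, the site of HNF4 as CAAAGNNCA, and the TATA box by its usual letters, TATAAA.
FGA, chr4:154590743-154590992, minus strand: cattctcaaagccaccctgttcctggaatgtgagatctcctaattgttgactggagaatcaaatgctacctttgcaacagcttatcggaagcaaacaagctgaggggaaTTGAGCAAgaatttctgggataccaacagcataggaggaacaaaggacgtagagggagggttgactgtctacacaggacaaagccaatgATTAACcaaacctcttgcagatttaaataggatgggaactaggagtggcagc
FGB, chr4:154562730-154562979, plus strand: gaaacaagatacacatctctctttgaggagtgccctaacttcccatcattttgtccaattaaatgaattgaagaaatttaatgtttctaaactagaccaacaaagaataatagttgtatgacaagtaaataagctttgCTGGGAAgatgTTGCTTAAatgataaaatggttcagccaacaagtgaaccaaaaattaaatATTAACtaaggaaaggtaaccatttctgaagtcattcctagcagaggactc
FGG, chr4:154612657-154612906, minus strand: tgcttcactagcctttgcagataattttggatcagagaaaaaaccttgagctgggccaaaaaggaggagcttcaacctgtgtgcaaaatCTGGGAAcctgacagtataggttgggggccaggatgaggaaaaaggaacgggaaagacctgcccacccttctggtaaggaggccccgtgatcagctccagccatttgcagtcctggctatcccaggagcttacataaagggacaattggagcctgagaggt
APOH, chr17:66229416-66229665, minus strand: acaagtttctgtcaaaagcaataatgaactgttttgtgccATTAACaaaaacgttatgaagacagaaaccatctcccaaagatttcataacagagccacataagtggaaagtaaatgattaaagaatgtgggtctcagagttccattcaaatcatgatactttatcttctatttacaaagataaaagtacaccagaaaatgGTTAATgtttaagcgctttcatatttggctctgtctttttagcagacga
A1CF, chr10:50885628-50885877, minus strand: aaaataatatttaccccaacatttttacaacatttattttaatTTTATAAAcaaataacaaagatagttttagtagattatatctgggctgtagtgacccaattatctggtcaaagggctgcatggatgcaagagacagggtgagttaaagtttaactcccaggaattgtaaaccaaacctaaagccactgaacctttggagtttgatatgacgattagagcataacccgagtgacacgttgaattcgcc

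FGA, FGB and APOH held GTTAAT close to the start, beginning 52, 51 and 49 bases upstream, and APOH held a further match beginning 210 bases upstream. Of 35116 RefSeq windows of this length, 6.23% held GTTAAT on either strand. FGB and FGG held CTGGGAA, beginning 112 and 161 bases upstream, against 9.15% of windows. FGA and FGB held TTGCNNAA, beginning 141 and 101 bases upstream, against 9.05% of windows. A1CF matched only TATAAA, on both strands in overlapping letters beginning 205 and 207 bases upstream, against 10.7% of windows, and none of the 5 printed windows held CAAAGNNCA, which 4.44% of windows did. In SERPINA1 the outermost window held no match, while the window at its second RefSeq start held GTTAAT beginning 76 bases upstream. The outermost window of TF held no match either, and the window at its second start held TTGCNNAA beginning 98 bases upstream. FGB has a second start 31 bases further in, with the same matches. These are matches of letters and say nothing of factor binding in RBE cells.

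The cells carried a biliary and not a hepatocyte profile. Of 14 hepatocyte markers with values, 11 lay under the filter on low counts, and albumin (ALB) had 0, 0 and 2 reads in sgKCNQ3 replicates 1 to 3 and 2, 3 and 0 reads in NC replicates 1 to 3. The biliary keratin gene KRT7 averaged 1440 CPM (reads scaled by library size with trimmed-mean factors) in sgKCNQ3 and 1404 CPM in NC, and KRT19 averaged 534 CPM in sgKCNQ3 and 493 CPM in NC. Over all tested genes, 29.1% were called, 14.0% higher and 15.1% lower. Of 11 tested biliary markers 7 were called higher and 0 lower. The summed level of the 12 with values was 4186 to 4386 CPM in sgKCNQ3 and 3768 to 3885 CPM in NC. CD24 (log2 fold change 0.68), KRT8 (0.28), ANXA4 (0.24), SPP1 (0.24), SOX9 (0.18) and KRT18 (0.16) were each called in 17 of 17 alternatives, while KRT7 and KRT19 were not called. The summed level of the 14 hepatocyte markers was 15.3 to 17.7 CPM in sgKCNQ3 and 13.2 to 15.1 CPM in NC, most of it from CPS1 and AMBP. Each of the 4 endothelial markers with values lay under the filter, the summed level being 0.501 to 1.19 CPM in sgKCNQ3 and 0.389 to 0.447 CPM in NC. Of 6 fibroblast markers 3 were tested and PDGFRA was called higher, with a summed level of 30.5 to 34.7 CPM in sgKCNQ3 and 22.9 to 24.8 CPM in NC. Of 6 leukocyte markers 3 were tested, and CD68 and CSF1R (called in 9 of the 16 alternatives that tested it) were called lower. CSF1R had 7, 7 and 2 reads in sgKCNQ3 and 10, 16 and 11 reads in NC. It passed the filter only through NC, the group where it is high, so nothing is read from its call. The summed level of the leukocyte markers was 72.9 to 78.1 CPM in sgKCNQ3 and 88.7 to 95.8 CPM in NC. The leukocyte genes PTPRC, CD3E and CD79A lay under the filter. The part of these markers, biliary ones included, in the results was not tested. In bulk RNA, more cells that express a gene and more RNA per cell cannot be told apart. KCNQ3 itself, the targeted gene, had 222, 206 and 191 reads in sgKCNQ3 and 256, 257 and 252 reads in NC (log2 fold change -0.33, SE 0.0841, edgeR quasi-likelihood adjusted p 0.00446), and on log2(TPM + 1) it was not called. Totals per library ranged from 15601283 to 16089500 reads.

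**Figure D1:**
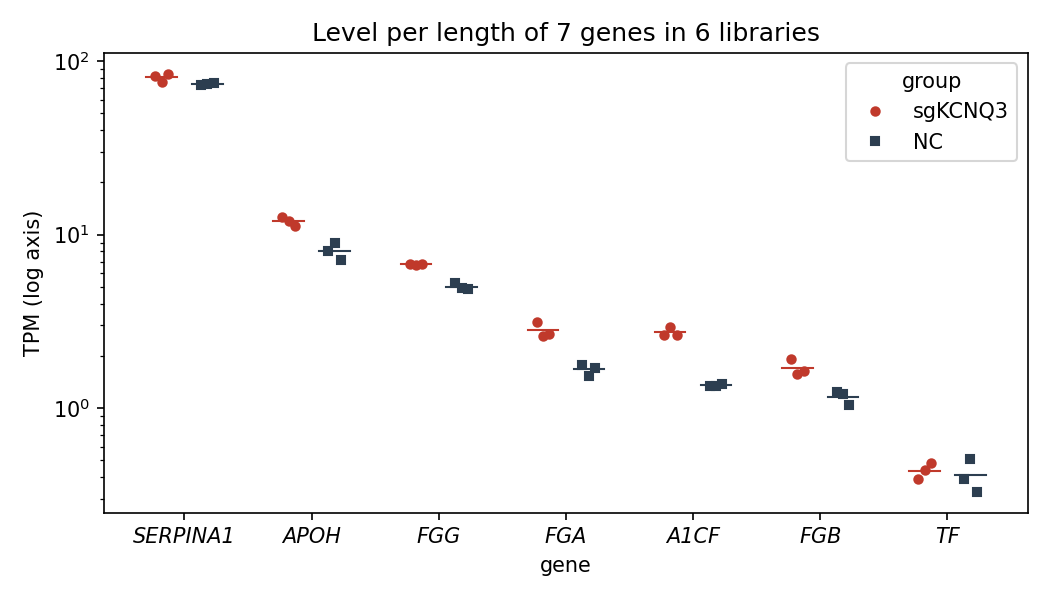
Level per length (TPM, log axis) of the 7 genes in each of the 3 sgKCNQ3 (circles) and 3 NC (squares) libraries, with a line at each group mean, ordered by the NC mean. SERPINA1 stood highest at 75.8 to 84.5 TPM in sgKCNQ3 and 72.9 to 74.4 TPM in NC. TF stood lowest in this unit, though not in CPM, at 0.39 to 0.48 TPM in sgKCNQ3 and 0.33 to 0.51 TPM in NC.

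Levels between genes were compared in TPM, a unit that divides reads by transcript length. The lengths are the authors' and are given by no source used here, so the order of genes is uncertain. TF, lowest in TPM, averaged 5.47 CPM in sgKCNQ3, against 5.58 CPM for FGG, 3.59 CPM for FGB and 3.46 CPM for FGA. In NC, TF averaged 5.49 CPM and FGG 4.41 CPM. The longest coding transcript of TF is 20602 bases and that of FGG 1760 bases, so the place of TF depends on the unit. SERPINA1 was the one member at a high level, above 88.3% of the genes of the table in sgKCNQ3 and above 87.4% in NC, and each of the others had a mean level of 11.9 TPM or less. In sgKCNQ3 the order was SERPINA1, APOH (11.2 to 12.6 TPM), FGG (6.73 to 6.80 TPM), FGA (2.60 to 3.15 TPM), A1CF (2.64 to 2.93 TPM), FGB (1.57 to 1.92 TPM) and TF. The ranges of FGA and A1CF overlapped in sgKCNQ3, so these neighbours did not differ beyond their spread, and no other neighbours overlapped. In NC the order was the same, with APOH at 7.12 to 8.99 TPM, FGG at 4.87 to 5.26 TPM, FGA at 1.54 to 1.77 TPM, A1CF at 1.34 to 1.37 TPM and FGB at 1.04 to 1.24 TPM, and no neighbours overlapped.

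All 3 fibrinogen chains were higher in sgKCNQ3, FGA the most. FGB and FGG differed by less than their SEs, and on log2(TPM + 1) their order turned, with log2 fold changes of 0.32 for FGB and 0.37 for FGG. FGA, the gene of the chain whose tip thrombin removes to start clotting, had 61, 53 and 51 reads in sgKCNQ3 and 36, 32 and 35 reads in NC. Every sgKCNQ3 library lay above every NC library. FGA averaged 3.46 ± 0.333 CPM in sgKCNQ3 and 2.20 ± 0.160 CPM in NC (SD, n = 3 each), a log2 fold change of 0.65 (SE 0.175).

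FGB, which encodes the Bβ chain, had 64, 53 and 54 reads in sgKCNQ3 and 43, 43 and 36 reads in NC. The groups did not overlap here either, with 3.59 ± 0.377 CPM in sgKCNQ3 and 2.60 ± 0.263 CPM in NC and a log2 fold change of 0.46 (SE 0.169). FGG, which encodes the γ chain that links fibrin fibres and binds platelets, had 87, 89 and 90 reads in sgKCNQ3 and 71, 70 and 66 reads in NC. FGG varied least of the members within sgKCNQ3, at 5.58 ± 0.0981 CPM in sgKCNQ3 and 4.41 ± 0.192 CPM in NC, and its log2 fold change was 0.34 (SE 0.129). Together the 3 genes gave 212, 195 and 195 reads in sgKCNQ3 and 150, 145 and 137 reads in NC.

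**Figure D2:**
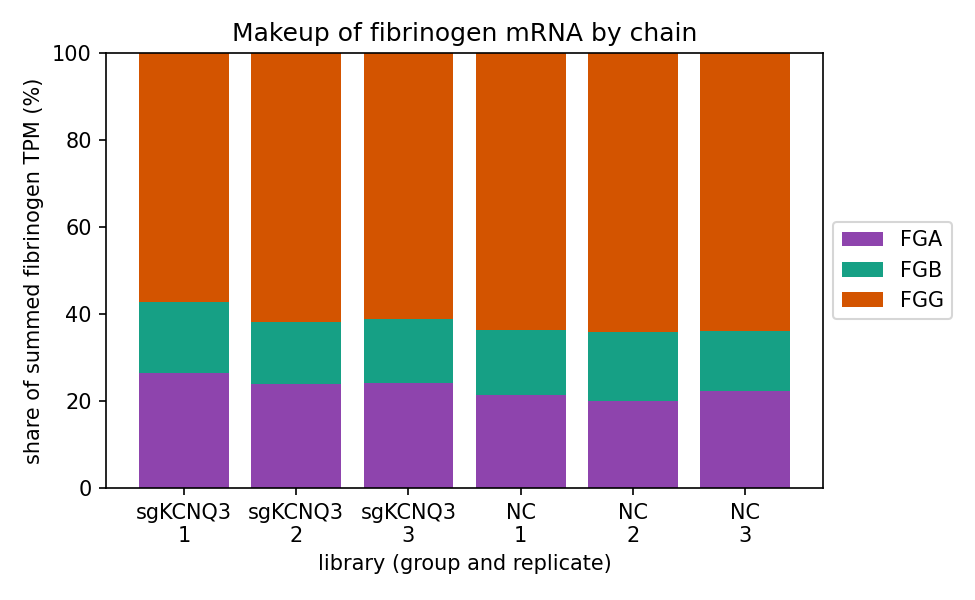
Share of the summed fibrinogen TPM (percent) held by FGA, FGB and FGG in each library, sgKCNQ3 replicates 1 to 3 at the left and NC replicates 1 to 3 at the right. FGG held 57.3 to 61.7% in sgKCNQ3 and 63.6 to 64.1% in NC.

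Fibrinogen protein holds its chains in equal numbers, but their mRNAs were unequal in TPM, which rests on the authors' unknown lengths. Mean reads in sgKCNQ3 were 88.7 for FGG, 57.0 for FGB and 55.0 for FGA. The longest coding transcripts of FGG and FGB are close in length, at 1760 and 1975 bases, and that of FGA is 3678 bases. The size of each share and ratio below therefore depends on the lengths used. Per length, FGG held 60.0 ± 2.40% of the summed fibrinogen TPM in sgKCNQ3 and 63.9 ± 0.25% in NC (SD, n = 3 each). FGA held 23.9 to 26.5% in sgKCNQ3 and 20.1 to 22.4% in NC, so the share of FGA was higher and that of FGG lower in every sgKCNQ3 library than in any NC library. The share of FGB overlapped between groups, at 14.4 to 16.2% in sgKCNQ3 and 13.6 to 15.8% in NC. The ratio of FGG to FGA was 2.16 to 2.59 in sgKCNQ3 and 2.85 to 3.19 in NC, and that of FGG to FGB was 3.54 to 4.29 in sgKCNQ3 and 4.06 to 4.68 in NC. These shares come from the contrast on which the genes were chosen and from 32 to 90 reads per gene and library, so they are a description.

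APOH was higher in sgKCNQ3 as well. It had 111, 108 and 98 reads in sgKCNQ3 and 73, 84 and 65 reads in NC, and the groups did not overlap. APOH averaged 6.65 ± 0.453 CPM in sgKCNQ3 and 4.73 ± 0.575 CPM in NC, a log2 fold change of 0.49 (SE 0.129). A1CF had the largest fold change of the members. It had 234, 264 and 232 reads in sgKCNQ3 and 124, 127 and 127 reads in NC, at 15.3 ± 1.23 CPM in sgKCNQ3 and 8.06 ± 0.0519 CPM in NC. The groups were far apart, the log2 fold change of A1CF was 0.93 (SE 0.0946), or 1.90-fold, and 52 of the 12565 tested genes, A1CF included, had a log2 fold change at least as high. The longest coding transcript of A1CF is 9517 bases with 36.9% GC, and with each library's trends over transcript length and GC content removed its log2 fold change was 0.76.

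SERPINA1 and TF were not called. SERPINA1 had 1704, 1548 and 1648 reads in sgKCNQ3 and 1536, 1563 and 1552 reads in NC. Replicate 2 of sgKCNQ3 lay within the NC range in reads. In CPM it lay below every NC library, at 98.1 against 98.7 to 99.6 CPM, so the groups overlapped. In TPM every sgKCNQ3 library lay above every NC library (75.8 to 84.5 against 72.9 to 74.4 TPM), so the overlap depends on the unit. The log2 fold change of SERPINA1, 0.05 (SE 0.0438), was close to its SE. TF had estimated counts of 76.69, 89.24 and 94.63 in sgKCNQ3 and 82.24, 107.35 and 69.16 in NC. The NC libraries spanned the whole range of the sgKCNQ3 libraries, with a log2 fold change of -0.01 (SE 0.145) whose sign varied with the scaling. TF was the one member with fractional counts, and in the RefSeq annotation its span overlaps 7 other genes, SRPRB among them, while no gene overlaps the other 6 members. No source used here tells how the authors' counting split such reads, so the value of TF is uncertain.

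**Figure D3:**
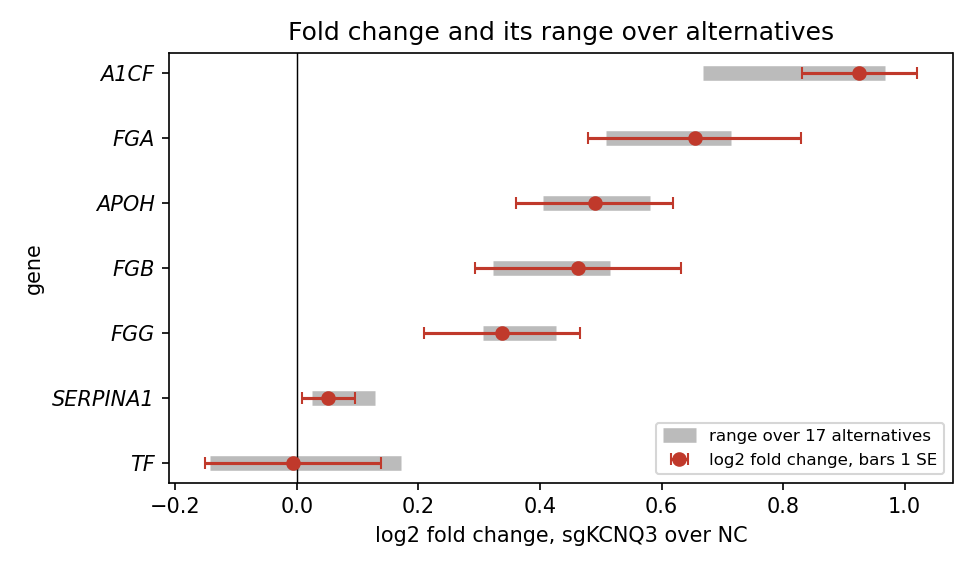
Log2 fold change (sgKCNQ3 over NC) of each member with its SE (red points and bars) and the range over 17 alternative analyses (grey). A1CF, FGA, APOH, FGB and FGG lay above 0 in each alternative, from 0.31 to 0.97, while the range of TF, -0.14 to 0.17, crossed 0.

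By edgeR's quasi-likelihood test 5 of the 7 members were called higher and 0 lower at an adjusted p under 0.05, where 29.1% of all tested genes were called (14.0% higher and 15.1% lower). In the same 5 genes every sgKCNQ3 library lay above every NC library, which held for 20.4% of tested genes (41.7% did not overlap in either direction). Since the genes were listed with this contrast known, nothing is read from these counts. A1CF and APOH were called in each of the 17 alternatives and FGA in 16, missing in DESeq2. FGB lost its call in DESeq2, limma-voom, the fit with the replicate number as a block, and without sgKCNQ3 replicate 1, NC replicate 1, NC replicate 2 or NC replicate 3. FGG lost its call in those tools, in that block fit, with no filter and whichever of the 6 libraries was left out. In 10 of the 14 groups of 3 counts, the SD between libraries was below the SD that counting alone gives (FGG in sgKCNQ3, 1.53 against 9.42 reads). The exceptions were APOH and TF in NC and A1CF and SERPINA1 in sgKCNQ3.

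Among the tested neighbours of the fibrinogen cluster, PLRG1 was called lower, while DCHS2 and LRAT lay above 0 and were not called. A difference between the cluster and its neighbours was not tested. The 3 genes span 49.7 kb. PLRG1, which encodes a spliceosome protein and lies 12.6 kb from FGB, was lower, at 180 CPM in sgKCNQ3 and 208 CPM in NC (log2 fold change -0.21, SE 0.0379, edgeR adjusted p 0.000184), though it was not called on either TPM scale. DCHS2, a protocadherin gene 71.2 kb away, had 34, 37 and 36 reads in sgKCNQ3 and 26, 23 and 31 reads in NC (log2 fold change 0.39, SE 0.208, edgeR adjusted p 0.161). LRAT, which encodes the enzyme that esterifies retinol, lies 128 kb away on the other side and had 37, 51 and 36 reads in sgKCNQ3 and 28, 37 and 35 reads in NC (log2 fold change 0.29, SE 0.201, edgeR adjusted p 0.302). RBM46 had 1 to 4 reads per library, and SFRP2 and NPY2R were not analysed here. Beside APOH, CEP112 was not called (log2 fold change -0.06) and the kinase gene PRKCA was called higher (0.12, edgeR adjusted p 0.00828), a call that ended with the length and GC trends removed. Beside A1CF, ASAH2B was called lower (-0.20, edgeR adjusted p 0.0467), in 5 of 17 alternatives, and PRKG1 was not called (-0.27, edgeR adjusted p 0.519). On either side of TF, TOPBP1 (0.13, edgeR adjusted p 0.0446) and RAB6B (0.39, edgeR adjusted p 0.0418) were called higher, in 8 and 6 of 17 alternatives.

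**Figure D4:**
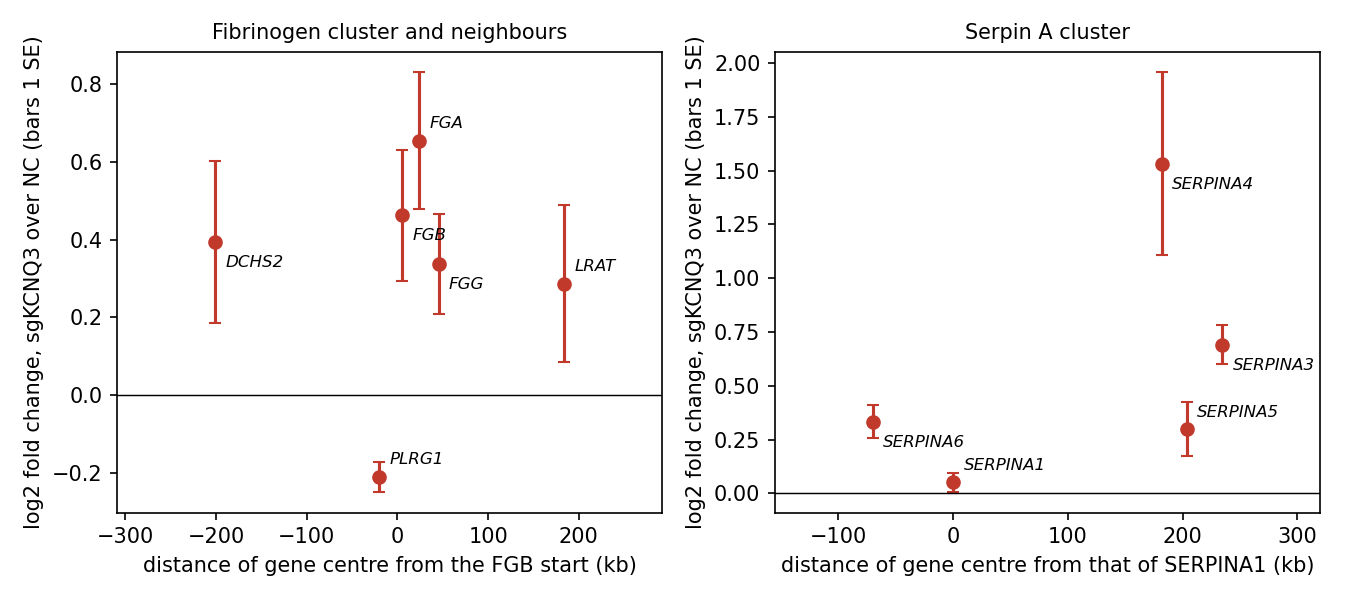
Log2 fold change (sgKCNQ3 over NC, bars 1 SE) against distance (kb) for tested genes around the fibrinogen cluster on chromosome 4 (left) and in the serpin A cluster on chromosome 14 (right). PLRG1 lies below 0 beside the fibrinogen genes, and SERPINA1 lies near 0 while SERPINA3 stands at 0.69 and SERPINA6 at 0.33.

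SERPINA1 also lies in a cluster, of serpin genes on chromosome 14, which was looked at after its values were seen. Of 5 other serpin genes with values within 343.6 kb, 4 were tested, 3 were called higher and 0 lower, beside 14.0% higher and 15.1% lower over all tested genes. SERPINA3, which encodes the acute phase protein alpha-1 antichymotrypsin, had 336, 275 and 320 reads in sgKCNQ3 and 172, 205 and 190 reads in NC (19.5 ± 1.89 CPM in sgKCNQ3 and 12.1 ± 0.90 CPM in NC, log2 fold change 0.69, SE 0.0890, edgeR adjusted p 2.48e-06). The groups were well apart. SERPINA6, which encodes corticosteroid-binding globulin and is the nearest coding gene on one side of SERPINA1 (SERPINA11 on the other was not analysed here), had 297, 283 and 288 reads in sgKCNQ3 and 220, 225 and 233 reads in NC (log2 fold change 0.33, SE 0.0777, edgeR adjusted p 0.00217). SERPINA4, which encodes the kallikrein inhibitor kallistatin, had 13, 12 and 11 reads in sgKCNQ3 and 3, 4 and 5 reads in NC (log2 fold change 1.53, SE 0.424). It was called in 15 of the 16 alternatives that tested it, missing in DESeq2. SERPINA4 passed the filter on low counts only through sgKCNQ3, the group where it is high, so nothing is read from its call. SERPINA5, the protein C inhibitor gene, was not called (log2 fold change 0.30, SE 0.125, edgeR adjusted p 0.0743), and SERPINA10 lay under the filter at 17, 10 and 8 reads in sgKCNQ3 and 2, 5 and 14 reads in NC. A difference between the fold change of SERPINA1 and those of its neighbours was not tested.

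Most genes of the wider set of plasma proteins made by the liver lay under the filter. The set joined fibrinogen-like, coagulation, apolipoprotein, protease inhibitor, carrier, acute phase and complement genes. It also took in the lipoprotein assembly genes P4HB (tested and not called) and MTTP (under the filter), whose products are not plasma proteins. Without the members 71 genes had values. Of these, 40 lay under the filter and 31 were tested, of which 10 were called higher, 0 lower and 21 not called, where 29.1% of all tested genes were called (14.0% higher and 15.1% lower), with a median log2 fold change of 0.27 against -0.01 over all tested genes. SERPINA4, 1 of the 10, passed the filter only through sgKCNQ3. At an unadjusted p under 0.05, 11 of the 31 were higher and 0 lower. With the length and GC trends removed, 11 of the 31 were called higher and 0 lower, and none was called lower in DESeq2 or limma-voom either.

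Among coagulation and fibrinolysis genes, 8 of 17 were tested, and 2 were called higher, against 14.0% of all tested genes. PROS1, the gene of the anticoagulant protein S, averaged 49.6 CPM in sgKCNQ3 and 41.3 CPM in NC (log2 fold change 0.27, SE 0.0600, edgeR adjusted p 0.00163). F5, which encodes the cofactor of the prothrombin-cleaving enzyme, averaged 8.66 CPM in sgKCNQ3 and 6.07 CPM in NC (log2 fold change 0.51, SE 0.121, edgeR adjusted p 0.00242). Of those not called, F12 (log2 fold change -0.03) and F10 (-0.02) had the highest TPM. Prothrombin (F2), antithrombin (SERPINC1) and plasminogen (PLG) lay under the filter with 18, 2 and 7 reads over the 6 libraries.

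Complement genes were called in 4 of the 10 tested, each higher, against 29.1% called and 14.0% called higher over all tested genes. C4BPA, which encodes the alpha chain of the C4b-binding protein, averaged 4.39 CPM in sgKCNQ3 and 2.13 CPM in NC (log2 fold change 1.04, SE 0.173, edgeR adjusted p 7.14e-05). C5 (log2 fold change 0.25, edgeR adjusted p 0.00203) and C4A (0.53, edgeR adjusted p 0.0294) were called as well. C4A shares reads with the near-identical C4B and lost its call in DESeq2, with the replicate block and without sgKCNQ3 replicate 1, sgKCNQ3 replicate 2, NC replicate 1 or NC replicate 2. C8G (log2 fold change -0.02) and CFB (0.20) had the highest TPM of those not called.

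Few carriers, acute phase proteins and apolipoproteins passed the filter. Of 17 carrier and acute phase genes 16 lay under the filter, ALB, TTR, HP, CRP and RBP4 among them. The one tested was LRG1, the gene of a leucine-rich glycoprotein of plasma, which was called higher at 4.32 CPM in sgKCNQ3 and 2.62 CPM in NC (log2 fold change 0.72, SE 0.159, edgeR adjusted p 0.00138). Of 8 apolipoprotein and lipoprotein assembly genes with values, APOC1, APOM and P4HB were tested and not called, at log2 fold changes of 0.17, -0.29 and -0.03. MTTP, whose protein loads lipid onto apolipoprotein B, had 13 reads over the 6 libraries. Among protease inhibitors outside the serpin cluster, AMBP (log2 fold change 0.12) had the highest TPM and was not called.

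Of 3 other genes for RNA-binding proteins of APOB mRNA editing, each tested, 2 were called higher and 0 lower. Over all tested genes 14.0% were called higher and 15.1% lower. RBM47, an alternative cofactor of APOB mRNA editing, averaged 65.7 CPM in sgKCNQ3 and 48.1 CPM in NC (log2 fold change 0.45, SE 0.0565, edgeR adjusted p 1.80e-06). CELF2, an RNA-binding protein that has been linked to the editing complex, averaged 18.1 CPM in sgKCNQ3 and 13.5 CPM in NC (log2 fold change 0.43, SE 0.0805, edgeR adjusted p 0.000301). SYNCRIP, a further protein known to bind the editing complex, was not called (log2 fold change 0.02). APOBEC1, the editing enzyme, was not analysed here, and editing itself cannot be read from gene counts.

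**Figure D5:**
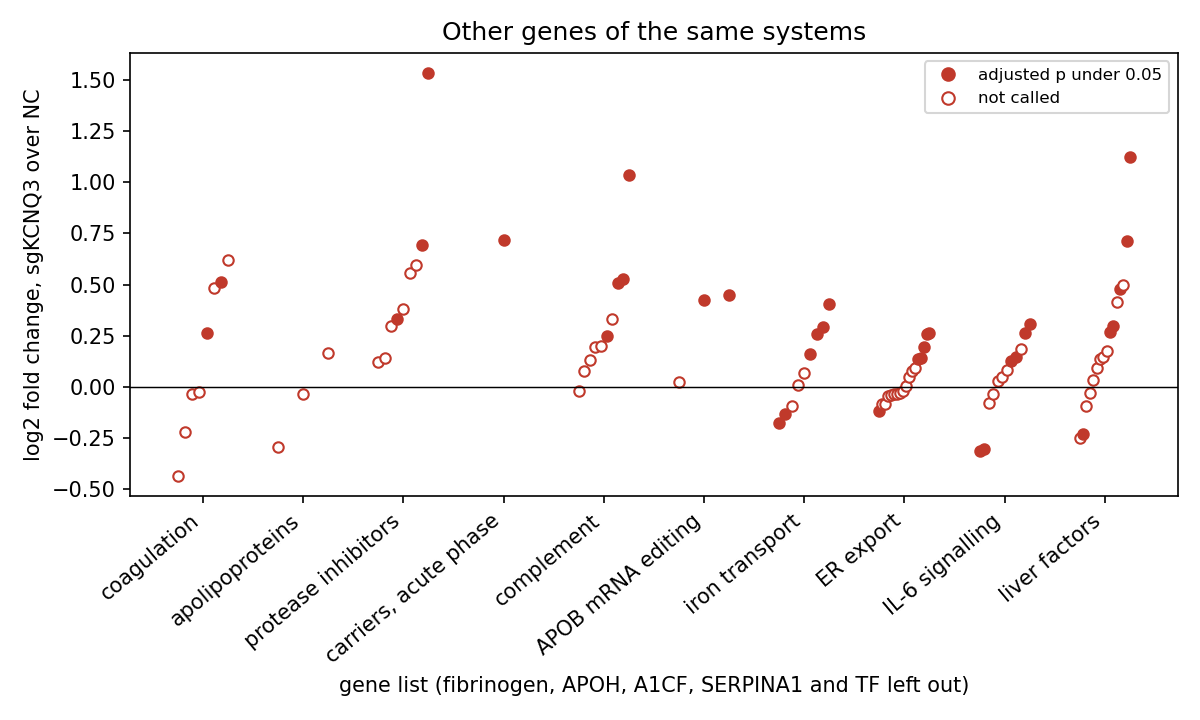
Log2 fold change (sgKCNQ3 over NC) of the tested genes of 10 lists, with fibrinogen, APOH, A1CF, SERPINA1 and TF left out; filled points have an edgeR adjusted p under 0.05 and open points do not. No called gene lies below 0 in the plasma protein lists at the left, while the iron, export, interleukin-6 and liver factor lists hold called genes on both sides.

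Genes that handle iron beside transferrin were called in both directions. Of 9 tested, 4 were called higher and 2 lower, against 14.0% higher and 15.1% lower over all tested genes, with a median log2 fold change of 0.07. IREB2, an iron sensor that binds mRNA, was higher (log2 fold change 0.29, edgeR adjusted p 2.36e-05), as were the iron exporter gene SLC40A1 (0.41, edgeR adjusted p 0.00416), SLC11A2 (0.16, edgeR adjusted p 0.0212) and HFE (0.26, edgeR adjusted p 0.0281). The ferritin genes FTH1 (log2 fold change -0.18, edgeR adjusted p 0.000261) and FTL (-0.13, edgeR adjusted p 0.00476) were lower, and neither was called on log2(TPM + 1). SLC11A2 and HFE were called in 13 and 12 of 17 alternatives. The transferrin receptor gene TFRC was not called (log2 fold change 0.07), nor was STEAP3 (0.01).

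The machinery that exports fibrinogen and antitrypsin from the endoplasmic reticulum had small fold changes. Of 18 genes, 5 were called higher and 1 lower, near the 29.1% of all tested genes called, with a median log2 fold change of -0.01. TMED10, a cargo receptor of the early secretory pathway (0.19, edgeR adjusted p 0.000428), the lectin chaperone gene CANX (0.14, edgeR adjusted p 0.00226) and MIA3, which helps to load large cargo (0.26, edgeR adjusted p 0.00241), were called higher. SEC24A (0.26) and LMAN1 (0.14) were called higher and SEC23B lower (-0.12). With the length and GC trends removed MIA3, SEC24A and LMAN1 were not called, and SEC23B was called in 5 of 17 alternatives. CALR (log2 fold change -0.02) and SURF4, the cargo receptor (-0.04), had the highest TPM of those not called.

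Interleukin-6 signalling, which raises fibrinogen and antitrypsin mRNA in liver during the acute phase, had genes called in both directions. Of 12 tested genes 4 were called higher and 2 lower, where all tested genes gave 14.0% higher and 15.1% lower, with a median log2 fold change of 0.06. IL6R was higher at 33.7 CPM in sgKCNQ3 and 28.1 CPM in NC (log2 fold change 0.26, SE 0.0619, edgeR adjusted p 0.00223), and JAK1 (0.15), IL6ST (0.13) and LIFR (0.31) were called too. IL6ST turned to -0.03 with the length and GC trends removed, and LIFR was called in 8 of 17 alternatives. SOCS3, the feedback inhibitor, was lower at 46.8 CPM in sgKCNQ3 and 58.1 CPM in NC (log2 fold change -0.31, SE 0.0594, edgeR adjusted p 0.000306). CEBPB, a transcription factor of acute phase genes, was lower at 170 CPM in sgKCNQ3 and 209 CPM in NC (log2 fold change -0.30, SE 0.0411, edgeR adjusted p 5.66e-06). STAT3 was not called (log2 fold change -0.04).

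Liver transcription factors were expressed, and 5 of the 16 tested were called higher and 1 lower, with a median log2 fold change of 0.16, where 29.1% of all tested genes were called. PROX1, a homeobox factor of liver and bile duct development, had the largest log2 fold change of the list. PROX1 (1.12), ONECUT2 (0.71), FOXA1 (0.48) and HNF4G (0.27) were called higher and XBP1 (-0.23) lower, and HNF4G lost its call in DESeq2, with the replicate block, with the length and GC trends removed and without sgKCNQ3 replicate 2, NC replicate 2 or NC replicate 3. FOXA2 (log2 fold change -0.09) and NR5A2 (0.14) had the highest TPM of those not called.

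The genes most like the fibrinogen sum in log2 CPM over the 6 libraries were B3GNT3, BEND6, ONECUT2, CELF2 and KRT81, with Pearson correlations of 0.995 to 0.999 among 10890 genes compared. Among the 5 most like A1CF were HSPA8, CANX, CLMN and SYNJ2, with correlations of 0.996 or higher. The 6 libraries fall into 2 groups, and 862 genes reached a correlation of 0.9 with the fibrinogen sum and 1013 with A1CF, so these names order genes that share the group difference.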

How the data were processed

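RNA of RBE cells was sequenced in 6 poly(A)-enriched libraries, and groups and replicate numbers were taken from the library titles. Reads per gene were deposited by the authors as estimated counts (expected counts) without normalization. TPM and FPKM values, a signal column (counts scaled by library) and means of each group, also as a rounded score, were deposited beside them, per the file headers. The normalized count, FPKM and mean columns entered no result. Per the submitters' processing notes, reads were placed on GRCh38.p13; aligner, counter and strand handling are named by no source used here.

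Rounded counts went into edgeR 4.0.16 (R 4.3.3): filterByExpr (minimum count 10), TMM scaling, robust quasi-likelihood F tests, and Benjamini-Hochberg adjustment over 12565 genes at 0.05. The biological coefficient of variation was 3.62%. SE is the log2 fold change over the square root of F. The test was checked on simulated counts. CPM uses TMM-scaled library sizes, given as mean ± SD over 3 libraries.

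Members and lists were chosen with earlier results of these data known. Results for some listed genes are not reported here. Named genes are the members, up to 6 called genes per list by p, the 2 uncalled genes per list with the highest TPM, the nearest coding neighbours, and the 5 most alike genes. Genes named as silent, and the serpin cluster, were chosen after their values were seen. Alternatives used DESeq2 1.42.0, limma 3.58.1 (voom and log2(TPM + a pseudocount of 1 or 0.1)), other scalings and filters, the replicate block, length and GC trends (natural splines, 5 degrees of freedom; GENCODE 29 transcripts of 16032 genes), and each library left out. Promoter windows came from RefSeq (GRCh38.p14), for 7 of 7 genes, as did positions and neighbours. Figures were drawn with matplotlib 3.10.9.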

Additional observations from a re-analysis of the deposited data

How the results depend on the processing

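The log2 fold changes of A1CF, FGA, APOH, FGB, FGG and SERPINA1 were above 0 in each of 17 alternatives, while that of TF was above 0 in 7. The number of members called, 5 of 7, was 2 in DESeq2, 3 in limma-voom, 3 with the replicate block and 3 to 4 when 1 library was left out. In the last case A1CF, APOH and FGA were called each time. The 10 plasma protein calls ranged from 8 (DESeq2) to 12 (no filter, 71 tested), and the 3658 calls over all genes from 2448 to 3822. Scaling by library size alone left 2324 higher and 1280 lower calls over all genes, log2(TPM + 1) left 2570 and 603, and removed length and GC trends left 1321 and 2002. Same-numbered libraries of the 2 groups did not deviate together (correlations 0.0136, -0.0977 and 0.00776 of deviations from group means). Counting noise could hide a weak pairing in these values, and the labels do not say whether replicates were paired. With the replicate block 3136 genes were called. The causes of the lost calls were not tested.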

Other observations

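Among genes under the filter, FGL1, which encodes a fibrinogen-like protein secreted by hepatocytes, had 1, 3 and 3 reads in sgKCNQ3 and 0 in each NC library. Against an assumed floor of 3 counts over the NC group this is 2.33-fold, with the counting error of the sgKCNQ3 reads left out. FGL1 was called only in the test with no filter. CPB2, the gene of a carboxypeptidase that slows clot breakdown, had 13, 6 and 8 reads in sgKCNQ3 and 4, 5 and 4 reads in NC. VIL1, the gut and bile duct brush border gene villin, averaged 9.46 CPM in sgKCNQ3 and 6.03 CPM in NC (log2 fold change 0.65, SE 0.114, edgeR adjusted p 0.000134) and was called in each of 17 alternatives, while the other tested enterocyte marker, CDH17, was not called (0.05, edgeR adjusted p 0.839).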
